A study of Mus musculus with 6 samples.

Results

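The genes described are the nuclear-encoded subunits of the mitochondrial respiratory chain and of ATP synthase in mouse liver, with the complex I assembly factors whose symbols share the same stem. They were taken by symbol, as every probe set paired with exactly 1 gene whose name starts with Nduf, Uqcr, Atp5 or Cox4 to Cox8, or is Sdha, Sdhb, Sdhc, Sdhd or Cycs. This gave 159 of the 20380 probe sets with 1 gene, and 85 of 12393 genes. Each gene was represented by its probe set of highest mean, and 82 of the 85 genes passed the filter on low signals that 9685 genes passed in all. The 3 that did not pass were Cox4i2, Cox6b2 and Cox8b, the lung, testis and heart or muscle forms of complex IV subunits.

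The samples were livers of wild-type male C57Bl/6 mice given purified FGF15, recombinant FGF19 or vehicle by jugular vein injection, with 2 arrays per group. Livers were collected 6 h after injection from mice kept without food, and total RNA was measured on the Affymetrix Mouse Genome 430A 2.0 array. FGF15 is the mouse hormone that the gut releases after bile acid uptake, and FGF19 is its human counterpart. Neither dose nor vehicle composition is given in the sources used here. Whether 2 arrays of a group are 2 mice is also not stated, so a p-value here covers array-to-array spread that may be technical. These are bulk livers, in which fewer cells of a type and less RNA per cell cannot be told apart.

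Complexes I and II pass electrons from NADH and succinate to coenzyme Q, complex III passes them to cytochrome c, and complex IV passes them to oxygen. Complexes I, III and IV pump protons across the inner mitochondrial membrane, and ATP synthase lets the protons back through to make ATP. In hepatocytes this ATP pays for glucose, urea and protein synthesis, and the chain reoxidises the carriers reduced by fatty acid oxidation. Most subunits are encoded in the nucleus and the remainder in mitochondrial DNA.

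Signals are intensities on a linear scale, and differences are on the log2(signal + 32) scale, which understates the change of dim genes. A gene is said to rise or fall at an adjusted p under 0.05 in limma, with Benjamini-Hochberg adjustment over all 9685 genes of a comparison. Every error of a difference is limma's standard error with 2 arrays per group. The array of FGF19 replicate 1 differed from the others in its controls, with a 3' to 5' actin ratio of 1.63 against 1.30 to 1.39 on the other arrays. Its 18S signals were 31.2 at the 3' probe set, against 16.5 to 20.6, 24.4 at the 5' one, against 7.64 to 15.6, and 32.3 at the middle one, against 4.25 to 5.82. Sdha and Cycs are named in the rule that chose the genes, so their signals do not test it. Sdha read between 2177 and 3181 and Cycs between 4037 and 4547 on the 6 arrays.

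The respiratory chain genes moved little with either hormone. With FGF15, 7 of 82 rose, and 5.91% of all genes rose. One gene, Cox7a2l, fell, and 6.67% of all genes fell. With FGF19, 11 of 82 rose, against 6.29% of all genes, and Cox7a2l again was the 1 gene that fell, against 7.27% of all genes. The share that rose was 8.54% with FGF15 and 13.4% with FGF19, so the FGF15 count lies near its background. Without vehicle replicate 1, 1 gene rose with each hormone (Ndufa4), and without vehicle replicate 2, 2 rose with FGF15 and 1 with FGF19. The share of all genes that rose was also smaller then, at 2.85% with FGF15 and 3.36% with FGF19 without the first, and 3.11% and 3.46% without the second. The fall of Cox7a2l with FGF15 held in both cases and that with FGF19 in neither. Without FGF15 replicate 2, 2 genes rose with FGF15, against 3.28% of all genes. Without FGF19 replicate 1, 3 genes rose with FGF19 (Atp5c1, Ndufa4 and Sdha), against 3.76% of all genes, Cox7a2l fell, and the median difference was 0.065. The shared direction was small: the median difference was 0.081 with FGF15 and 0.075 with FGF19, against -0.047 and -0.072 over all genes. After quantile normalization these medians were 0.054 and 0.045, against 0.0058 and 0.001 over all genes. Both comparisons use the same vehicle arrays.

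**Figure D1:**
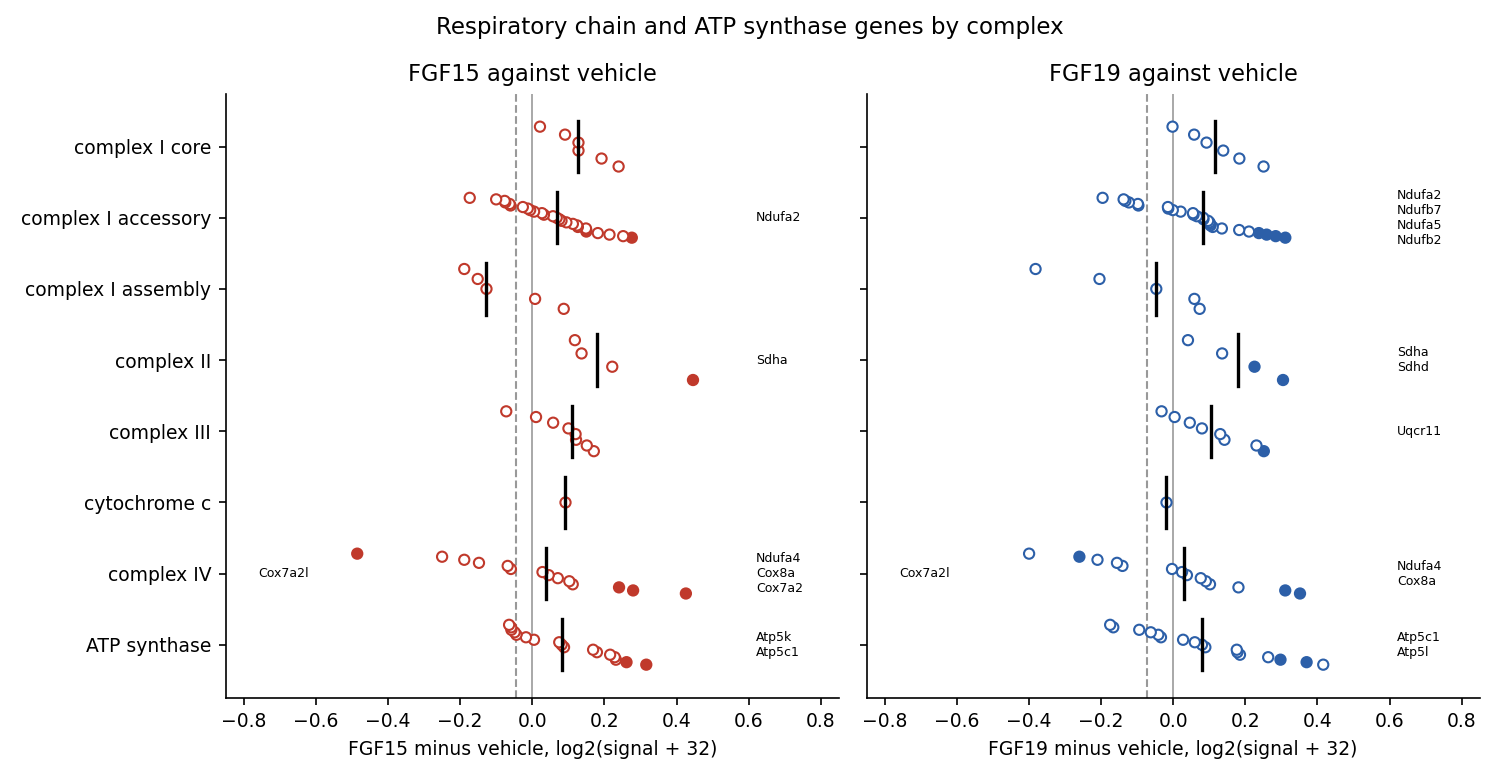
Difference from vehicle of each of the 82 genes, by complex, on the log2(signal + 32) scale, with FGF15 on the left and FGF19 on the right. Filled points passed the test and are named at the side, black bars are medians and the dashed line is the median of all 9685 genes; most points lie within 0.3 of 0, and Cox7a2l is the only filled point below 0 in either panel.

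Most genes passed neither test, and more estimates lay above 0 than below. With FGF15, 57 of 82 estimates were above 0, against 42% over all genes. Both FGF15 arrays exceeded both vehicle arrays for 43 genes, against 22.2% of all genes, and lay below both for 11, against 32.7%. With FGF19, 55 estimates were above 0, against 38.7% over all genes. Both FGF19 arrays exceeded both vehicle arrays for 45 genes, against 21.4% of all genes, and lay below both for 14, against 37.2%. All 4 hormone arrays exceeded both vehicle arrays for 34 genes, against 13.3% of all genes, and lay below both for 8, against 22.4%.

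The genes are bright, and bright genes as a whole read higher than all genes. The 41 respiratory chain genes above a signal of 1632 had medians of 0.081 with FGF15 and 0.046 with FGF19, and the 41 dimmer ones had 0.081 and 0.10. Of all 82, 64 had a mean signal of at least 1000, so the dimmer ones also hold bright genes. This split does not compare bright genes with dim ones. Among the 835 genes with a mean signal of at least 1000, the median difference was 0.018 with FGF15 and 0.0023 with FGF19, and 17.4% and 16.3% of them rose. The 64 respiratory chain genes among them had medians of 0.081 and 0.078, and 6 and 8 of them rose. In a narrower stratum, the 460 genes between signals of 1097 and 2479.8, which are the quartiles of the respiratory chain genes, the medians were 0.055 and 0.060, and 21.7% and 21.3% rose. The 40 respiratory chain genes in that stratum had medians of 0.075 and 0.096. Both strata were chosen after the data were seen, and they differ: beside the narrower one the respiratory chain genes stand only 0.020 and 0.036 higher, and 3 and 5 of the 40 rose (7.5% and 12.5%), a smaller share than that of the stratum. The part of signal level in the shift was not tested.

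**Figure D2:**
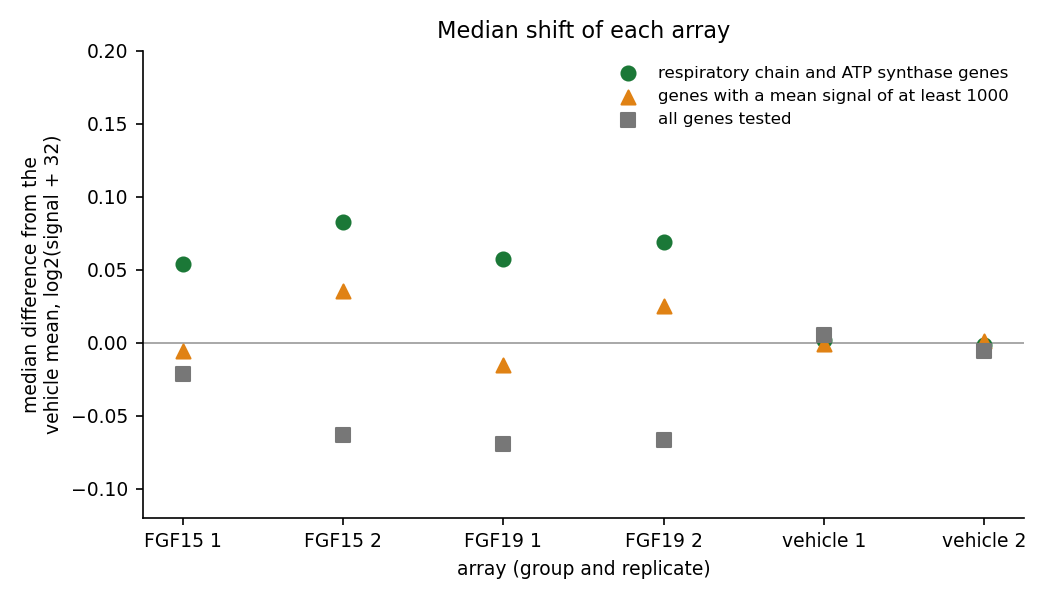
Median difference of each array from the vehicle mean, on the log2(signal + 32) scale, for the respiratory chain genes, for genes with a mean signal of at least 1000 and for all genes tested. The respiratory chain medians lie between 0.054 and 0.083 on the 4 hormone arrays, and the medians of all genes lie between -0.069 and -0.022 there.

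Complex I, the NADH dehydrogenase, has a catalytic core and many accessory subunits. On their chosen probe sets, none of the 6 measured core subunits rose or fell with either hormone alone. Of the 6 estimates, 6 and 5 were above 0, beside 42% and 38.7% over all genes, with medians of 0.13 and 0.12. The core subunit Ndufs7 is named after its values were seen. Its other probe set read 956 and 894 with FGF15, 826 and 846 with FGF19 and 706 and 751 with vehicle. In the fit of all probe sets, Ndufs7 was called higher with FGF15, against 4.73% of all probe sets, and not with FGF19. Ndufs1, the core subunit that carries several iron-sulfur clusters, had signals of 889 and 882 on the FGF15 arrays, 903 and 882 on the FGF19 arrays and 696 and 797 on the vehicle arrays. All 4 hormone arrays lay above both vehicle arrays. It differed by 0.24 ± 0.076 (SE, adjusted p = 0.0688) with FGF15 and 0.25 ± 0.076 (SE, adjusted p = 0.0551) with FGF19, and passed the test only for the mean of both hormones against vehicle, at 0.24 ± 0.065 (SE, adjusted p = 0.0322), a call kept under 9 of 17 other settings. Ndufv1, the subunit that binds NADH, had signals of 1190.3 and 1187 on the FGF15 arrays, 1296 and 1244 on the FGF19 arrays and 1105 and 1123 on the vehicle arrays, and its differences of 0.091 ± 0.062 (SE, adjusted p = 0.397) and 0.18 ± 0.062 (SE, adjusted p = 0.0814) did not pass.

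Of the 27 accessory subunits, 1 rose with FGF15 and 4 with FGF19, and none fell, beside 5.91% and 6.29% of all genes that rose and 6.67% and 7.27% that fell. Ndufa2, an accessory subunit of the matrix arm, rose with both hormones. Its signals were 1200.2 and 1369 on the FGF15 arrays, 1347 and 1283 on the FGF19 arrays and 1053 and 1054 on the vehicle arrays. The vehicle arrays were nearly equal and lay below all others. The difference was 0.28 ± 0.075 (SE, adjusted p = 0.0395) with FGF15 and 0.31 ± 0.075 (SE, adjusted p = 0.0227) with FGF19. Its probe set ends in _s_at and can hybridise with related transcripts.

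Ndufb2 and Ndufb7, both of the membrane arm, and Ndufa5, of the matrix arm, rose with FGF19. Ndufb2 had signals of 1116 and 1138 on the FGF15 arrays, 1125 and 1168 on the FGF19 arrays and 966 and 969 on the vehicle arrays, a difference of 0.24 ± 0.062 (SE, adjusted p = 0.0323) with FGF19 and 0.21 ± 0.062 (SE, adjusted p = 0.0515) with FGF15. Its hormone arrays all lay above its vehicle arrays. Ndufb7 had signals of 808 and 878 on the FGF15 arrays, 984 and 907 on the FGF19 arrays and 744 and 797 on the vehicle arrays, with differences of 0.28 ± 0.075 (SE, adjusted p = 0.0339) for FGF19 and 0.12 ± 0.075 (SE, adjusted p = 0.338) for FGF15. Ndufa5 had signals of 932 and 965 on the FGF15 arrays, 1136 and 1002 on the FGF19 arrays and 884 and 888 on the vehicle arrays, and differed by 0.26 ± 0.074 (SE, adjusted p = 0.0453) with FGF19 and 0.094 ± 0.074 (SE, adjusted p = 0.465) with FGF15. Its call with FGF19 was kept under 7 of 18 other settings. In both genes the FGF15 arrays lay between the other groups.

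At the other end, Ndufv3, an accessory subunit beside the NADH site, had the lowest accessory estimates, -0.17 with FGF15 and -0.20 with FGF19, and passed neither test. Its signals were 1527 and 1581 on the FGF15 arrays, 1433 and 1633 on the FGF19 arrays and 1750.2 and 1762 on the vehicle arrays. Ndufa9, an accessory subunit near the coenzyme Q site, had 0.13 with FGF15 and -0.015 with FGF19. The 5 assembly factors, which help build complex I and are not part of it, had medians of -0.13 with FGF15 and -0.047 with FGF19, and none passed. Among them Ndufaf3 read 159 and 166 on the FGF15 arrays, 155 and 156 on the FGF19 arrays and 194 and 174 on the vehicle arrays, lower on every hormone array than on either vehicle array, with adjusted p = 0.374 and 0.209.

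Complex II, succinate dehydrogenase, is also an enzyme of the TCA cycle and is wholly nuclear-encoded. All 4 of its subunits had estimates above 0, beside 42% of all genes with FGF15 and 38.7% with FGF19. All 4 also lay above both vehicle arrays in either comparison, beside 22.2% and 21.4% of all genes. Its medians of 0.18 with each hormone were the highest of the complexes. Sdha, the flavoprotein that oxidises succinate, had signals of 3105 and 3181 on the FGF15 arrays, 2683 and 3022 on the FGF19 arrays and 2177 and 2429 on the vehicle arrays. It rose by 0.45 ± 0.080 (SE, adjusted p = 0.00537) with FGF15 and by 0.30 ± 0.080 (SE, adjusted p = 0.0317) with FGF19. Its other probe set had 0.25 ± 0.068 (SE, adjusted p = 0.0475) and 0.12 ± 0.068 (SE, adjusted p = 0.286), in a fit of all probe sets, so the second hormone's rise was not called there.

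Sdhd, a membrane anchor of complex II, had signals of 1421 and 1547 on the FGF15 arrays, 1499 and 1475 on the FGF19 arrays and 1266 and 1268 on the vehicle arrays. It rose with FGF19, by 0.23 ± 0.066 (SE, adjusted p = 0.0495), and had 0.22 ± 0.066 (SE, adjusted p = 0.0559) with FGF15. The call with FGF19 was kept under 7 of 18 other settings, and the difference was 0.018 with the mean of its probe sets. Its other, dimmer probe set read below 0 with both hormones, at -0.053 and -0.19. Sdhb, the iron-sulfur subunit, had 0.14 and 0.14, and the anchor Sdhc had 0.12 and 0.041, none past the test.

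Complex III, the cytochrome bc1 complex, had 7 of 8 estimates above 0 with each hormone, beside 42% and 38.7% over all genes. Its medians were 0.11 and 0.11. Uqcr11, a small accessory subunit, was the 1 gene of the complex that rose on its chosen probe set, with FGF19. Its signals were 2034 and 1986 on the FGF15 arrays, 2266 and 2145 on the FGF19 arrays and 1899 and 1796 on the vehicle arrays, and its differences were 0.25 ± 0.065 (SE, adjusted p = 0.0302) with FGF19 and 0.12 ± 0.065 (SE, adjusted p = 0.279) with FGF15. The FGF19 arrays were the highest and the FGF15 arrays also lay above vehicle. Another subunit, Uqcrb, is named after its values were seen. Its dimmer probe set read 2544 and 2510 with FGF15, 2503 and 2416 with FGF19 and 2144 and 2098 with vehicle. Uqcrb was called higher with FGF15 in the fit of all probe sets, against 4.73% of all probe sets. Under quantile normalization it was also called with FGF15, against 6.4% of all genes. Uqcrc1, a core protein, had 0.010 with FGF15 and 0.13 with FGF19, and Uqcrfs1, the Rieske iron-sulfur protein, had 0.058 and 0.046. Cycs, the cytochrome c that carries electrons to complex IV, passed neither test. Its signals were 4438 and 4547 on the FGF15 arrays, 4037 and 4291 on the FGF19 arrays and 4224 and 4211 on the vehicle arrays. The brighter of its other probe sets read 2273 and 2428 with FGF15, 2333 and 2356 with FGF19 and 2187 and 2135 with vehicle. The dimmer one read 1130 and 1166 with FGF15, 1124 and 1154 with FGF19 and 967 and 1070 with vehicle. On both, all hormone arrays lay above both vehicle arrays, and neither was called.

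Complex IV, cytochrome c oxidase, held both the rise of smallest p and the only gene that fell. Ndufa4, first described with complex I and since assigned to complex IV, had signals of 2456 and 2486 on the FGF15 arrays, 2378 and 2313 on the FGF19 arrays and 1871 and 1792 on the vehicle arrays. The hormone arrays lay well clear of the vehicle arrays. It rose by 0.43 ± 0.062 (SE, adjusted p = 0.00161) with FGF15 and 0.35 ± 0.062 (SE, adjusted p = 0.00455) with FGF19, the smallest adjusted p of the 82 genes in each comparison. It passed the test under all 18 other settings tried with FGF15 and under 16 of 18 with FGF19.

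Cox7a2l, which helps join complexes III and IV into supercomplexes, had signals of 522 and 522 on the FGF15 arrays, 648 and 585 on the FGF19 arrays and 723 and 765 on the vehicle arrays. The FGF15 arrays were lowest and the FGF19 arrays lay between them and vehicle. It fell with both hormones, with differences of -0.49 ± 0.075 (SE, adjusted p = 0.00223) for FGF15 and -0.26 ± 0.075 (SE, adjusted p = 0.0462) for FGF19. This rests on a probe set ending in _x_at, which can hybridise with other transcripts. Its other probe sets had -0.26 and 0.031 with FGF15, and -0.18 and 0.10 with FGF19, none of them called. The fall with FGF19 held under 6 of 18 other settings.

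Cox8a, the widely expressed form of the small subunit VIII, had signals of 1059.6 and 1043 on the FGF15 arrays, 1122 and 1030.1 on the FGF19 arrays and 861 and 859.9 on the vehicle arrays, and rose by 0.28 ± 0.067 (SE, adjusted p = 0.0235) with FGF15 and 0.31 ± 0.067 (SE, adjusted p = 0.0132) with FGF19. All hormone arrays exceeded both vehicle arrays. Its other probe sets had 0.19 and 0.26, and, on a dim one, 0.060 and -0.21, none of them called. With the mean of the 3 probe sets, neither call held, at 0.18 (adjusted p = 0.304) with FGF15 and 0.12 (adjusted p = 0.467) with FGF19. Cox7a2, the liver form of subunit VIIa, had signals of 4903 and 4923 on the FGF15 arrays, 4385 and 4538 on the FGF19 arrays and 4249.8 and 4060.2 on the vehicle arrays, and rose with FGF15, by 0.24 ± 0.064 (SE, adjusted p = 0.0363), while FGF19 gave 0.10 ± 0.064 (SE, adjusted p = 0.332). The other probe set of Cox7a2 read 2380 and 2480 with FGF15, 2319 and 2466 with FGF19 and 1969 and 2084 with vehicle. There the 2 hormones lay close together above vehicle, although neither probe set was called with FGF19 in the fit of all probe sets. The regulatory subunit Cox4i1 had -0.068 and 0.025, Cox6b1 had 0.045 and -0.0031, and the liver form Cox6a1 had -0.059 and -0.16. Cox5a, a nuclear-encoded subunit on the matrix side, had -0.15 and -0.21, and none of these passed. The other probe set of Cox6a1 read the other way, with all hormone arrays above both vehicle arrays, and was not called. Its signals were 2252 and 2508 with FGF15, 2392 and 2682 with FGF19 and 2138 and 2151 with vehicle.

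The tissue-restricted forms were dim. The heart and muscle forms Cox6a2 and Cox7a1 read between 24.1 and 39.0 and between 19.4 and 29.4, and neither passed a test. Cox8c, a testis form, had signals of 128 and 107 on the FGF15 arrays, 102 and 92.7 on the FGF19 arrays and 150.1 and 127 on the vehicle arrays, with -0.40 ± 0.13 (SE, adjusted p = 0.0652) for FGF19. Cox4i2 read 18.9 and 5.61 on the FGF15 arrays, 10.5 and 8.88 on the FGF19 arrays and 22.6 and 2.04 on the vehicle arrays. Cox6b2 read 4.73 and 1.47 on the FGF15 arrays, 1.95 and 11.4 on the FGF19 arrays and 22.1 and 45.7 on the vehicle arrays, with both vehicle arrays highest. Cox8b read 28.9 and 4.54 on the FGF15 arrays, 18.5 and 10.6 on the FGF19 arrays and 13.1 and 4.13 on the vehicle arrays. The means of these 3 lay under the filter.

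ATP synthase had 11 of 17 estimates above 0 with each hormone, beside 42% and 38.7% over all genes, and medians of 0.081 and 0.080. Atp5c1, the gamma subunit that turns inside the catalytic head, had signals of 2925 and 2927 on the FGF15 arrays, 3382 and 2949 on the FGF19 arrays and 2433 and 2440.2 on the vehicle arrays. The vehicle arrays were the lowest and nearly equal. It rose by 0.26 ± 0.074 (SE, adjusted p = 0.0475) with FGF15 and 0.37 ± 0.074 (SE, adjusted p = 0.00924) with FGF19. A second, dim probe set of the gene, with signals of 9.27 and 20.5 on the FGF15 arrays, 33.2 and 37.9 on the FGF19 arrays and 43.5 and 35.6 on the vehicle arrays, gave -0.62 and -0.081, so averaging the pair turned the FGF15 difference to below 0, at -0.18. The call with FGF15 was kept under 8 of 18 other settings and that with FGF19 under 14.

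Atp5k and Atp5l, the membrane subunits e and g that help hold ATP synthase dimers together, each rose with 1 hormone. Atp5k had signals of 1607 and 1748 on the FGF15 arrays, 1741 and 1498 on the FGF19 arrays and 1355 and 1326 on the vehicle arrays, rose by 0.32 ± 0.081 (SE, adjusted p = 0.0312) with FGF15 and had 0.26 ± 0.081 (SE, adjusted p = 0.0598) with FGF19. Its other called probe set gave 0.26 ± 0.067 (SE, adjusted p = 0.0342) and 0.27 ± 0.067 (SE, adjusted p = 0.0289), called with both. Atp5l had signals of 1950.1 and 2143 on the FGF15 arrays, 2246 and 2041 on the FGF19 arrays and 1765 and 1707 on the vehicle arrays, rose by 0.30 ± 0.074 (SE, adjusted p = 0.0263) with FGF19 and had 0.23 ± 0.074 (SE, adjusted p = 0.0719) with FGF15. In both genes the hormone arrays did not overlap with the vehicle arrays.

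The catalytic head itself did not pass a test. Atp5b, the catalytic beta subunit, had signals of 6554 and 6734 on the FGF15 arrays, 5883 and 6390.2 on the FGF19 arrays and 5956 and 6615 on the vehicle arrays, with 0.081 for FGF15 and -0.034 for FGF19. Atp5a1, the alpha subunit, had signals of 4181 and 3988 on the FGF15 arrays, 3646 and 3819 on the FGF19 arrays and 3813 and 3868 on the vehicle arrays, with 0.088 and -0.041. Another probe set of Atp5a1, ending in _s_at, read 2034 and 2151 with FGF15, 2297 and 2226 with FGF19 and 1968 and 2044 with vehicle. A dim one read 25.7 and 37.3 with FGF15, 35.7 and 69.5 with FGF19 and 44.3 and 46.3 with vehicle, and neither was called. Atp5g2, which encodes the c-ring subunit, had -0.044 and 0.18, and Atp5mpl, a small membrane protein of the enzyme, had -0.064 and -0.17.

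**Figure D3:**
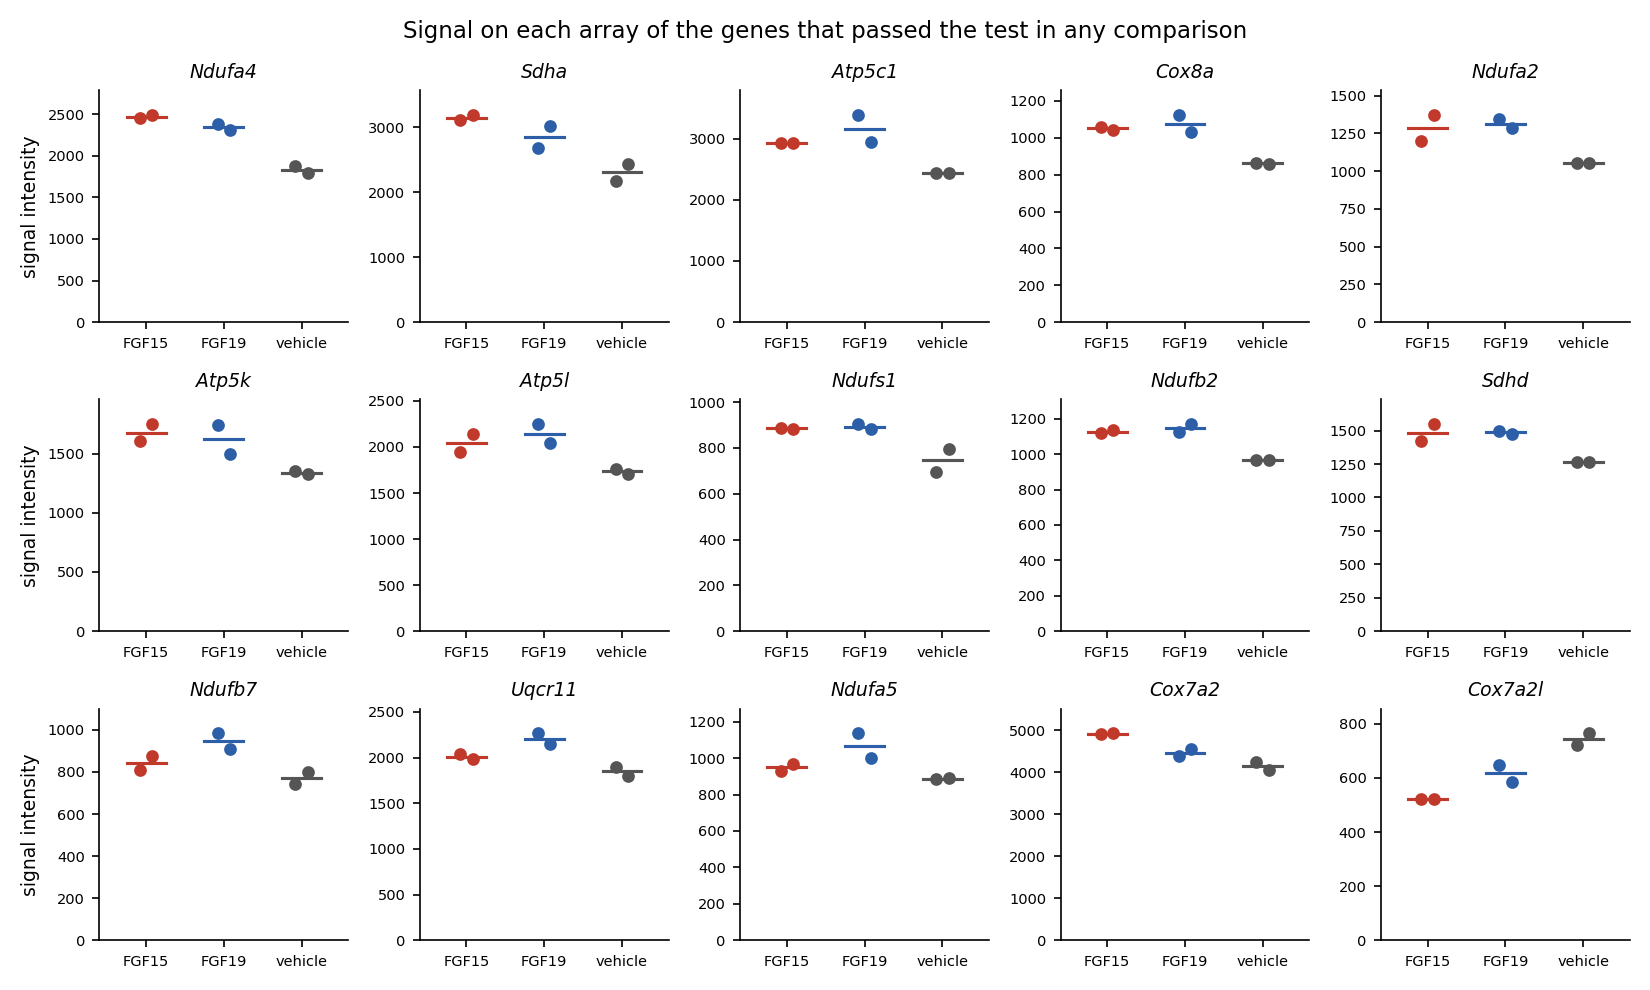
Signal intensity on each array of the 15 genes that passed the test in any comparison against vehicle; points are arrays, bars are group means and each axis starts at 0. Ndufa4 reads 2313 to 2486 on the hormone arrays and 1792 and 1871 on the vehicle arrays, and Cox7a2l is the 1 gene with the vehicle arrays highest.

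FGF19 was not told apart from FGF15 in any of these genes. In limma, 0 of 82 rose and 0 fell in FGF19 minus FGF15, against 2.41% and 1.89% of all genes, and at an unadjusted p under 0.05 there were 2 higher and 0 lower, against 7.61% and 9.03% of all genes. Without FGF15 replicate 2, Atp5md was called higher, and without FGF19 replicate 2, Uqcrb, a small subunit of complex III, lower; both are named after their values were seen. Both FGF19 arrays exceeded both FGF15 arrays for 15 genes, against 20.1% of all genes, and lay below both for 17, against 25.8%. The estimates ran from -0.21 for Cox8c to 0.25 for Atp5md, a small ATP synthase membrane subunit. For Ndufa4 the difference was -0.074 (95% interval -0.21 to 0.064), for Sdha -0.14 (95% interval -0.32 to 0.037) and for Cox7a2l 0.23 (95% interval 0.059 to 0.39). The interval of Cox7a2l excludes 0 before adjustment, and its adjusted p was 0.146. Atp5g2 had the smallest p of the 82 genes in limma, at 0.22 (95% interval 0.078 to 0.36, adjusted p = 0.0923). A missed test does not show that the hormones act alike. For the mean of both hormones against vehicle, 10 of 82 rose, against 7% of all genes, and 1 fell, against 8.08%.

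Further probe sets of the same genes gave a second reading. There were 70 others past the filter, in 45 genes, of which 8 were called higher with FGF15 and 8 with FGF19, and none lower. At the level of probe sets, 4.73% of all rose and 5.81% fell with FGF15, and 5.15% rose and 6.34% fell with FGF19. The sign matched that of the gene's chosen probe set in 49 of the 70 with FGF15 and in 39 with FGF19. The second probe set of Ndufa5 had signals of 701 and 758 on the FGF15 arrays, 695 and 737 on the FGF19 arrays and 516 and 495 on the vehicle arrays, and rose by 0.50 ± 0.075 (SE, adjusted p = 0.00255) with FGF15 and 0.48 ± 0.075 (SE, adjusted p = 0.00332) with FGF19. It showed a clear rise with FGF15 where the brighter probe set showed none past the test. Ndufb7 likewise had 0.35 ± 0.075 (SE, adjusted p = 0.015) and 0.30 ± 0.075 (SE, adjusted p = 0.0303) on its second probe set.

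Ndufa7, an accessory subunit of complex I, is named after its values were seen. Of its 5 probe sets past the filter, 1 was called with FGF15 and 3 with FGF19, and the brightest, which represents it, was called with neither. The furthest of them read 918 and 847 on the FGF15 arrays, 1198 and 1038 on the FGF19 arrays and 827 and 637 on the vehicle arrays, a rise of 0.60 ± 0.12 (SE, adjusted p = 0.0102) with FGF19.

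**Figure D4:**
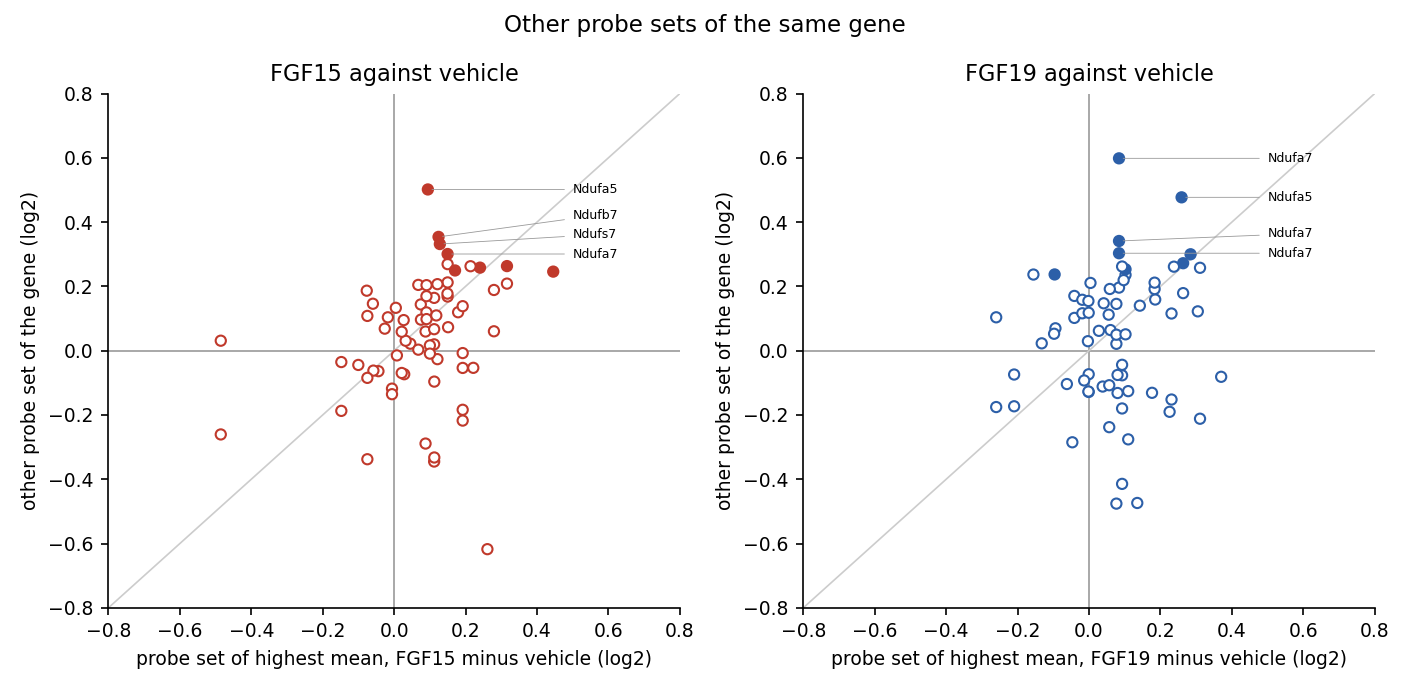
Difference from vehicle of the 70 further probe sets (vertical) against that of the gene's brightest probe set (horizontal), on the log2(signal + 32) scale, with FGF15 on the left and FGF19 on the right. Filled points passed the test, and those above 0.3 are named; the largest is Ndufa5 at 0.50 with FGF15 and Ndufa7 at 0.60 with FGF19.

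Promoters of 71 of the 85 genes were found in RefSeq (GRCm38.p6), and the 250 bases before each start were searched on both strands for 6 sets of letters: the NRF1 palindrome, CCGGAAG for ETS factors, AAGATGGCG for YY1, TCAAGGTCA for estrogen-related receptors, TGACGTCA for the cyclic AMP response element and TATAAA for the TATA box. Matches of different sets did not overlap. NRF1 letters stood before 4 of the 71 genes (5.63%), against 0.877% of all 27025 genes with a promoter. ETS letters stood before 13 (18.3%), against 7.83%. The cyclic AMP element stood before 4 (5.63%), against 1.77%, YY1 before 1 (1.41%), against 0.711%, and the receptor element before 1 (1.41%), against 0.422%. TATA letters were the 1 set less common here, before 6 (8.45%), against 14.3%. Any set stood before 6 of the 12 genes with a promoter that rose in any comparison, before 0 of 1 that fell and before 19 of the other 58. These are matches of letters, not sites. The 27025 genes were not limited to genes tested on the arrays or to genes of like signal, and the part of that choice was not tested.

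The windows of Ndufa4, Cox7a2l and Sdha, the genes of smallest adjusted p with FGF15, hold none of the 6 sets. With FGF19, Atp5c1, Cox8a, Ndufa2 and Atp5l had smaller adjusted p than Sdha and Cox7a2l. Those of Atp5k, Ndufb2 and Sdhd are shown because they hold a match, and were picked for it; capitals mark NRF1 letters in Atp5k, the cyclic AMP element in Ndufb2 and ETS letters, on the opposite strand, in Sdhd.
Ndufa4 (chr6:11907451-11907700, minus strand): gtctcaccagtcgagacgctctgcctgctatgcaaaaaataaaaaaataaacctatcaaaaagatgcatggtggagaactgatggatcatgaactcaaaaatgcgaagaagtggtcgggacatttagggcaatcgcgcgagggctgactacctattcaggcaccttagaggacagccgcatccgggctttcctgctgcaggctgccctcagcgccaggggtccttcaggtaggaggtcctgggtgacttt
Sdha (chr13:74350241-74350490, minus strand): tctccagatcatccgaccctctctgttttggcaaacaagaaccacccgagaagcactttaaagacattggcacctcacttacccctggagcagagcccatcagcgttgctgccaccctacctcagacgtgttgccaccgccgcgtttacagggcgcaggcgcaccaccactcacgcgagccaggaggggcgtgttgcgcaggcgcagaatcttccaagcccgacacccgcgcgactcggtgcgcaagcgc
Cox7a2l (chr17:83514334-83514583, minus strand): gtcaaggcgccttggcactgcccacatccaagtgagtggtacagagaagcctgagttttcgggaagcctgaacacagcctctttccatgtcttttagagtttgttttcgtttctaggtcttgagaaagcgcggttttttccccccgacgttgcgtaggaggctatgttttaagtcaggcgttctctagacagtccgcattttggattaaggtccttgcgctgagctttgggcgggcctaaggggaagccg
Atp5k (chr5:108434400-108434649, minus strand): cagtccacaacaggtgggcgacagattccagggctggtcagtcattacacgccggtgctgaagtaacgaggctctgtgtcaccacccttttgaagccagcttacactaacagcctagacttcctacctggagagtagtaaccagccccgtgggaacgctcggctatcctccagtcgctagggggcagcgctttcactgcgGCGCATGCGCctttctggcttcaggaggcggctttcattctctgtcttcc
Ndufb2 (chr6:39592315-39592564, plus strand): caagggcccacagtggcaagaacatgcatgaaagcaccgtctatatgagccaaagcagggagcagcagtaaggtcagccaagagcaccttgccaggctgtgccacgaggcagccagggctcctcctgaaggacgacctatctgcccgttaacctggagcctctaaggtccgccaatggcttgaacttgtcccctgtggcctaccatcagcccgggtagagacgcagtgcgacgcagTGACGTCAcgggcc
Sdhd (chr9:50603850-50604099, minus strand): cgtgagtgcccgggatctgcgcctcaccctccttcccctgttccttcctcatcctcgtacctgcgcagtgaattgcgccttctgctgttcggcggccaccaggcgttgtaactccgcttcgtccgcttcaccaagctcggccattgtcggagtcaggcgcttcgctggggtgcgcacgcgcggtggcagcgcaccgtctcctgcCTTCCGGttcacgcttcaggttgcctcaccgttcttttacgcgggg

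The neighbouring parts of the pathway were read from lists. Over all 9685 genes, 5.91% rose and 6.67% fell with FGF15, and 6.29% rose and 7.27% fell with FGF19. The medians over all genes were -0.047 and -0.072. Of 17 TCA cycle and pyruvate dehydrogenase genes, 4 rose and 1 fell with FGF15, and 3 rose and 1 fell with FGF19, with medians of 0.17 and 0.12. Pdha1, the catalytic alpha subunit of pyruvate dehydrogenase, rose by 0.49 ± 0.066 (SE, adjusted p = 0.000975) and 0.38 ± 0.066 (SE, adjusted p = 0.00439). Idh3a, a subunit of the NAD-dependent isocitrate dehydrogenase, fell with both, at -0.45 ± 0.076 (SE, adjusted p = 0.00411) and -0.62 ± 0.076 (SE, adjusted p = 0.000555). Of 17 genes of coenzyme Q synthesis and electron entry, 3 rose and 1 fell with FGF15, and 4 rose and 2 fell with FGF19. Sqor, which passes electrons from sulfide to coenzyme Q, rose by 0.56 and 0.69, and Etfdh, which passes them from fatty acid oxidation, rose by 0.37 and 0.39. Coq8a fell with both hormones and Coq10a with FGF19. Of 27 assembly factors of the chain, 2 rose with FGF15 and 0 with FGF19, and none fell; Cox17, a copper chaperone of complex IV, rose by 0.36 ± 0.071 (SE, adjusted p = 0.00889) with FGF15 and had 0.22 ± 0.071 (SE, adjusted p = 0.0698) with FGF19.

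Of the 19 measured regulators of mitochondrial gene expression, 0 rose and 2 fell with FGF15, and 1 rose and 3 fell with FGF19. Over all genes, 5.91% rose and 6.67% fell with FGF15, and 6.29% rose and 7.27% fell with FGF19. The medians of the regulators were -0.037 and 0.044, against -0.047 and -0.072 over all genes. Pprc1, a coactivator related to PGC-1alpha, was the 1 that rose with FGF19, by 0.39 ± 0.11 (SE, adjusted p = 0.041), and it had 0.077 ± 0.11 (SE, adjusted p = 0.714) with FGF15. Ppargc1a, the coactivator PGC-1alpha, read 31.0 and 29.7 on the FGF15 arrays, 111 and 131 on the FGF19 arrays and 204 and 198 on the vehicle arrays. It fell with both hormones, at -1.90 ± 0.12 (SE, adjusted p = 8.19e-06) for FGF15 and -0.61 ± 0.12 (SE, adjusted p = 0.00863) for FGF19, with no overlap between groups. Ppargc1b, its relative, fell with both, at -0.99 and -1.19, and Esrra, the estrogen-related receptor alpha, had -0.45 ± 0.14 (SE, adjusted p = 0.0707) with FGF15 and fell with FGF19, at -0.67 ± 0.14 (SE, adjusted p = 0.0132). ND5, the 1 listed transcript of mitochondrial DNA that was measured, had -0.22 ± 0.10 (SE, adjusted p = 0.201) with FGF15 and fell with FGF19, at -0.36 ± 0.10 (SE, adjusted p = 0.0409), with signals of 9513 and 10258 on the FGF15 arrays, 8053 and 9962 on the FGF19 arrays and 11726 and 11257 on the vehicle arrays.

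Markers of other cells moved beside these results. Over all genes, 6.67% fell with FGF15 and 7.27% with FGF19, and 5.91% and 6.29% rose. Of 11 Kupffer cell markers, 10 fell with FGF15 and 9 with FGF19, and their summed signal was 3484 to 3608 on FGF15 arrays, 3499 to 3534 on FGF19 arrays and 6427 to 6525 on vehicle arrays. Of 9 stellate cell markers, Col1a1, Col1a2 and Col3a1 fell with FGF15, and Col1a1 and Col3a1 with FGF19. Of 4 neutrophil markers, S100a8 and S100a9 fell with FGF15 and S100a8 with FGF19, and of 10 endothelial markers, Lyve1 fell with FGF15 and none with FGF19. Of 2 erythroid markers, Alas2 rose with FGF19. The summed signals were 2331 to 2425 with FGF15, 2424 to 2603 with FGF19 and 2817 to 2902 with vehicle for stellate cells, and 266 to 289.7 with FGF15, 438 to 488 with FGF19 and 545 to 577 with vehicle for neutrophils. They were 1620 to 1691 with FGF15, 1641 to 1772 with FGF19 and 1847 to 1889 with vehicle for endothelium, and 831 to 869.9 with FGF15, 884 to 1029 with FGF19 and 665 to 763 with vehicle for erythroid cells. The sums also take in markers under the filter, so they cover 6 neutrophil and 3 erythroid markers. None of the 8 hepatocyte markers passed a test, and their sum was 65257 to 71400.2 with FGF15, 53923 to 68339.6 with FGF19 and 75505 to 76189.5 with vehicle. None of 8 fat markers and 3 of 12 muscle and heart markers passed the filter. The part of cell makeup in the respiratory chain values was not tested.

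**Figure D5:**
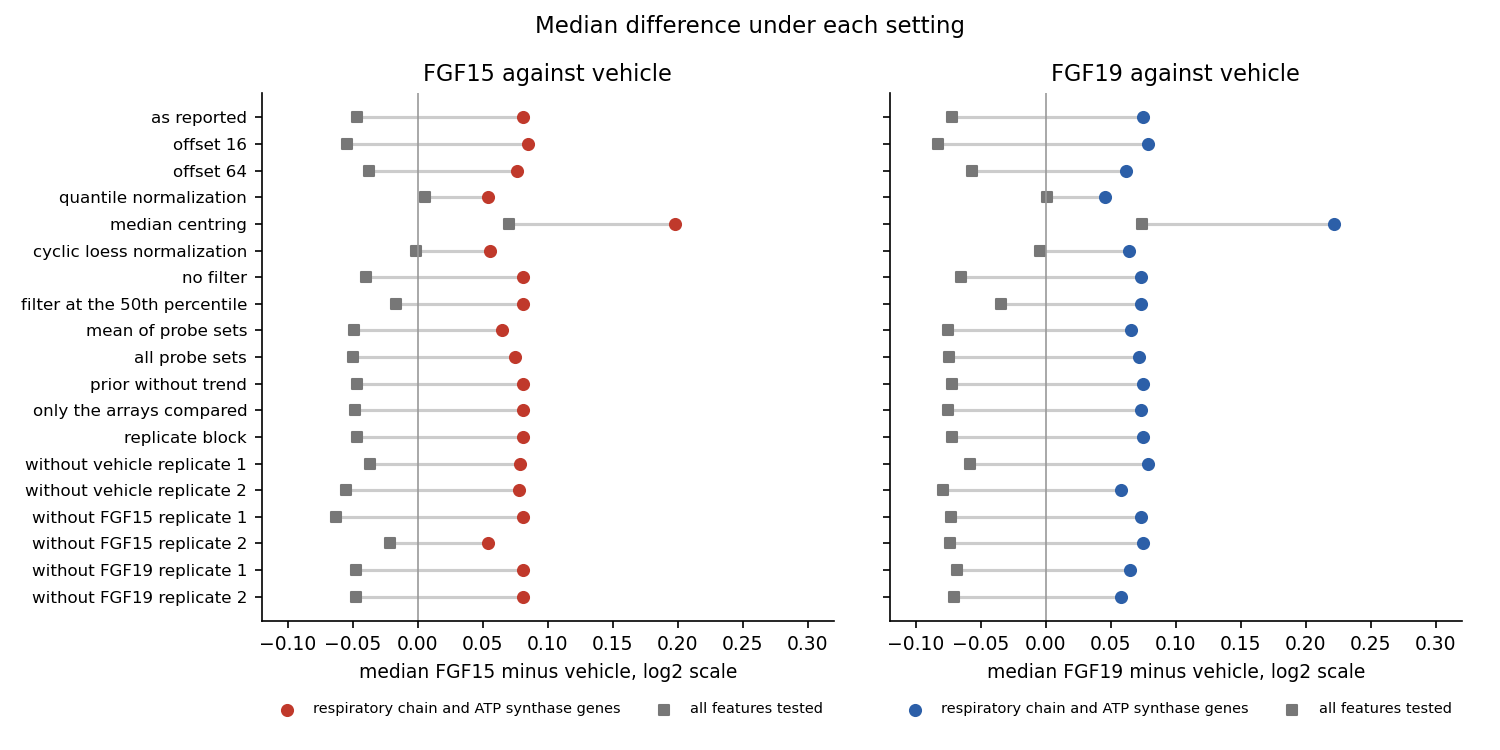
Median difference from vehicle of the respiratory chain genes (circles) and of all features tested (squares) under each setting, on the log2 scale, with FGF15 on the left and FGF19 on the right. The circle lies to the right of the square in every row, by 0.048 to 0.14 with FGF15 and by 0.045 to 0.16 with FGF19. The distance is smallest under quantile normalization in both panels.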

How the data were processed

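The deposited values are signal intensities, 1 per probe set and array, which from the values themselves the authors had scaled to a mean of about 200 after trimming 2% at each end. The summarising software is not given in the sources used here. Per the platform annotation, 20380 of 22690 probe sets had 1 gene, 691 several and 1555 none besides 64 controls; 20351 were named through Entrez and 29 kept the platform symbol. The filter left out genes whose mean log2(signal + 32) was below the 25th percentile, about 14.0 in signal. limma 3.58.1 in R 4.3.3 (lmFit, eBayes with trend) was fitted to all 6 arrays, giving 6.83 prior and 3 residual degrees of freedom and a median standard error of 0.13. Tests were two-sided. The number of arrays limits the precision: on simulated data the fit kept false calls under the threshold but recovered only part of the changes, and the recovery asked of it was lowered after the first outcome was seen. Probe set results are from a fit of all 16969 probe sets past the filter. Genes named were those past a test, those of smallest p in each direction and a list by name; others are marked where they appear. Members and lists were chosen with earlier results of these data known, and the signal strata and 3 of the printed promoters after values were seen. Python 3.11.15 and matplotlib 3.10.9 made the figures.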

Additional observations from a re-analysis of the deposited data

How the results depend on the processing

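Each count and median was recomputed under 18 other settings. Median centring, which moved the median of all genes to 0.07 with each hormone, changed the counts the most. The respiratory chain genes that rose numbered 14 with FGF15, 27 with FGF19 and 32 for the mean of both hormones. Those shares over all genes were 10.4%, 12.6% and 14.2%. With FGF19, 0 of the 82 fell, beside 3.41% of all genes, and the medians of the 82 were 0.1978, 0.2215 and 0.2080. Median centring left the gap between the median of these genes and that of all genes at 0.13 with FGF15 and 0.15 with FGF19. Quantile normalization narrowed that gap to 0.0483 and 0.0445, and cyclic loess to 0.0571 and 0.0685. The medians of all genes then lay between -0.0043 and 0.0058. Quantile normalization gave 6 higher and 3 lower with FGF19, beside 6.76% and 6.11% of all genes. It gave 2 lower for the mean of both, as did cyclic loess, beside 6.99% and 7.22% of all genes. Without the filter, 3 rose and 2 fell with FGF15 (Cox6b2 joining Cox7a2l), beside 3.65% and 3.9% of all genes. There 7 rose and 0 fell with FGF19, beside 4.03% and 4.33%, and 2 fell for the mean, beside 4.99%. With the mean of a gene's probe sets, 0 fell with FGF15 and for the mean, beside 7.03% and 9.03% of all genes. Atp5c1 then turned to -0.1782 with FGF15 and -0.0169 for the mean, since its dim probe set enters. Counted as probe sets, 13 rose with FGF15, 17 with FGF19 and 22 for the mean, beside 4.73%, 5.15% and 5.91% of all probe sets. With FGF19, 0 fell, beside 6.34% of all probe sets. A prior without trend left 1 higher with FGF15, 0 with FGF19 and 1 for the mean, beside 2.5%, 3.07% and 3.6% of all genes. It left 0 lower with FGF19, beside 4.48% of all genes. With only the arrays compared, 2 fell with FGF15 and 0 with FGF19, beside 6.34% and 7.86% of all genes. The cause of the other moves was not tested.

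Leaving out 1 array gave 1 to 10 higher and 1 to 2 lower with FGF15 (medians 0.0542 to 0.0811), 1 to 11 higher and 0 to 5 lower with FGF19 (0.0576 to 0.0783), 0 to 1 higher and 0 to 1 lower for FGF19 minus FGF15 (-0.0436 to 0.0132), and 1 to 12 higher and 0 to 5 lower for the mean of both (0.0622 to 0.0754). With FGF15, 1 gene rose when vehicle replicate 1 was left out; leaving out FGF15 replicate 2 or vehicle replicate 2 gave 2. With FGF19, 1 rose without either vehicle array and 3 without FGF19 replicate 1. For the mean of both, 1, 3 and 6 rose without vehicle replicate 1, vehicle replicate 2 and FGF15 replicate 2, beside 3.45%, 3.85% and 5.46% of all genes. The 5 lower calls came without FGF19 replicate 2. Replicates of different groups share only a number (correlations of their deviations 0.081, -0.022 and 0.05). With the replicate block, 7 rose and 1 fell with FGF15, beside 6% and 6.87% of all genes. With FGF19, 10 rose and 1 fell under this block, beside 6.45% and 7.8%. For FGF19 minus FGF15, 0 rose and 0 fell, beside 2.5% and 2.15%, and 11 rose and 1 fell for the mean, beside 7.3% and 8.5%. The gene that fell with FGF19 was then Cox8c, not Cox7a2l.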
